A study of Mus musculus with 12 samples.

Results

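Neurofilaments and other intermediate filaments were followed through 7 genes, the neurofilament subunits Nefl, Nefm and Nefh, alpha-internexin (Ina), peripherin (Prph), vimentin (Vim) and nestin (Nes). Every probe set whose annotation names exactly 1 of these symbols was taken, which gave 17 of the 45037 probe sets tested and 7 of 18193 named genes. A probe set is a group of short array probes that reads 1 transcript, and its value here is a log2 expression value, so that a difference of 1 is a doubling. The arrays, 12 in all, hold 4 groups of 3 biological replicates: Gdap1 knockout motoneurons, wild type motoneurons, Gdap1 knockout sciatic nerve and wild type sciatic nerve. All mice were untreated and 2 months old. The knockout deletes exon 5 of Gdap1, a gene for a mitochondrial outer membrane protein that is mutated in forms of Charcot-Marie-Tooth neuropathy. Motoneurons were captured by laser, nerves were lysed whole, and the arrays were selected by amount and quality of RNA. The Gdap1 probe sets lie outside the deleted exon, so none of them reads the deletion itself. The strain, the promoter of any Cre and the pairing of nerves with motoneurons are not stated in the labels.

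Intermediate filaments are ropes of coiled-coil proteins that give cells and axons mechanical strength. Nefl, Nefm and Nefh co-assemble in neurons, where Nefl forms the core and the long tails of Nefm and Nefh project from the filament and take part in setting axon calibre. Ina and Prph assemble with them, Ina mainly in central neurons and Prph mainly in neurons that send axons to the periphery. Vim is the filament of mesenchymal cells and Schwann cells, and Nes is a partner of Vim known from neural precursors and also found in Schwann cells, endothelium and muscle. Mutations of Nefl cause another form of Charcot-Marie-Tooth disease, and neurofilament messages are made in the motoneuron cell body.

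The labelled tissues were checked against marker genes. The mean log2 level of 9 measured motoneuron markers ran from 10.56 to 10.93 in knockout motoneurons and from 10.74 to 11.01 in wild type motoneurons, against 6.69 to 6.89 in knockout nerve and 6.54 to 6.76 in wild type nerve. Chat, the enzyme that makes acetylcholine, was the lowest of these markers in motoneurons, with means of 4.58 in knockout and 4.83 in wild type, and did not mark them. The mean of 5 myelinating Schwann cell markers was at most 8.56 in motoneuron arrays and at least 14.45 in nerve arrays. Markers of other spinal cells were also high in motoneuron arrays. The mean of 5 spinal interneuron markers was at least 10.93 in knockout and 10.82 in wild type motoneurons, against at most 5.76 in nerve. That of 6 oligodendrocyte markers was at least 11.04 in knockout and 11.21 in wild type motoneurons, against at most 8.79 in nerve. The part of such cells in the motoneuron values, the filament genes included, was not tested. Sex-linked transcripts were not balanced: Xist was low in 1 motoneuron array, knockout replicate 2, and high in 2 nerve arrays, knockout replicate 3 and wild type replicate 2.

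**Figure D1:**
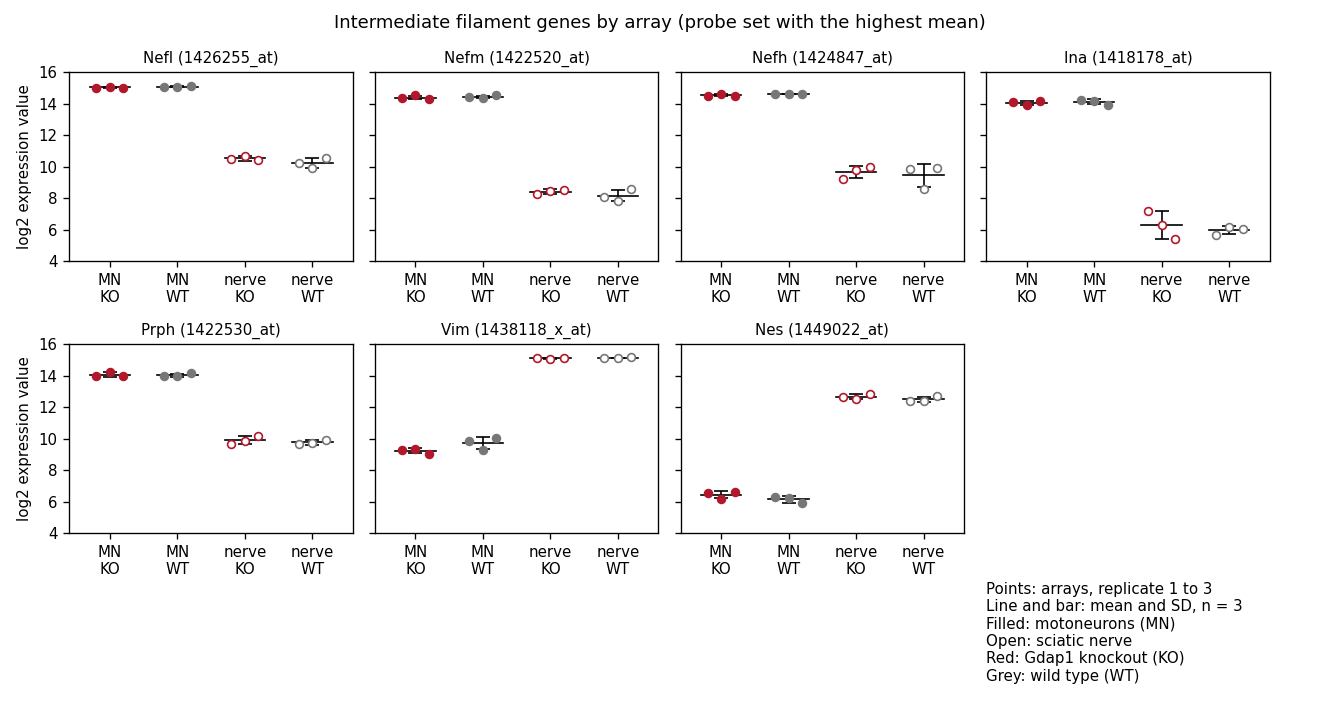
Log2 expression value in each array of the brightest probe set of each of the 7 genes, 1 panel per gene, with the groups in the order knockout motoneurons (MN), wild type motoneurons, knockout nerve and wild type nerve. Points are arrays, and the line and bar are the mean and SD (n = 3). Nefl, Nefm, Nefh, Ina and Prph sit high in motoneurons and low in nerve, Vim and Nes lie the other way round, and the genotypes overlap in each panel.

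The first question was whether the filament genes differed in knockout motoneurons. No probe set of the 17 passed an adjusted p of 0.05 by limma, and neither did any of the 45037, a background of 0%. None of the 17 had an unadjusted p under 0.05, against 17% of all probe sets, and none had groups that did not overlap, against 22.5% of all probe sets. The median difference, knockout minus wild type, was -0.053 over the 17 and 0.039 over all probe sets. In lysates and captured cells, fewer cells of a type and less RNA per cell cannot be told apart.

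Nefl, the core subunit, was close to the top of the scale in every motoneuron array. Its brighter probe set, 1426255_at, read 15.00, 15.09 and 15.03 in knockout motoneurons, against 15.09, 15.09 and 15.13 in wild type motoneurons. The groups overlapped narrowly, with knockout replicate 2 between wild type arrays. The fold of knockout over wild type was 0.957, with a 95% interval of 0.908 to 1.01 (adjusted p = 0.3818 by limma). The highest value of any probe set in these arrays was between 15.16 and 15.22, and how far the array compresses differences at that level was not tested. The other Nefl probe set, 1454672_at, lies lower on the scale and read 14.31, 14.14 and 14.29 in knockout motoneurons, against 14.40, 14.47 and 14.26 in wild type motoneurons. Here too the groups overlapped, with wild type replicate 3 lower than 2 knockout arrays, and the fold was 0.913 with an interval of 0.821 to 1.01 (adjusted p = 0.3603 by limma). The smallest adjusted p that any alternative gave a filament gene in this comparison was for this probe set, 0.0803 by limma without wild type replicate 3. In that alternative 4646 of all probe sets passed.

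The side-arm subunits differed as little. Nefm, the medium subunit, read 14.35, 14.53 and 14.31 in knockout motoneurons, against 14.41, 14.40 and 14.54 in wild type motoneurons. The genotypes were interleaved and the fold was 0.964 with an interval of 0.867 to 1.07 (adjusted p = 0.7332 by limma). Nefh, the heavy subunit, read 14.53, 14.64 and 14.50 in knockout motoneurons, against 14.61, 14.63 and 14.65 in wild type motoneurons. Knockout replicate 2 lay among the wild type arrays and the other two lay beneath them, with a fold of 0.949 and an interval of 0.886 to 1.02 (adjusted p = 0.4246 by limma).

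Ina was read by 3 probe sets that did not point one way. The brightest, 1418178_at, read 14.11, 13.94 and 14.15 in knockout motoneurons, against 14.25, 14.19 and 13.95 in wild type motoneurons. Probe set 1448992_at read 13.09, 12.61 and 13.16 in knockout motoneurons, against 12.76, 12.64 and 12.21 in wild type motoneurons. Wild type replicate 3 was the lowest of the wild type arrays for each of the 3 probe sets, and knockout replicate 2 was the lowest of the knockout arrays. The same arrays had the lowest means of 5 spinal interneuron markers, 10.93 in knockout replicate 2 and 10.82 in wild type replicate 3, against 11.66 and 11.81 in the other knockout arrays and 11.78 and 11.85 in the other wild type arrays. They also had the highest motoneuron marker means of their genotypes, 10.93 and 11.01, and the part of interneurons in the Ina values was not tested. The fold was 0.958 by 1418178_at, 1.33 by 1448992_at with an interval of 0.993 to 1.79 (adjusted p = 0.3038 by limma), and 1.10 by 1448991_a_at.

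Prph, the filament of peripherally projecting neurons, was highest by 1422530_at. That probe set read 14.00, 14.25 and 13.98 in knockout motoneurons, against 14.02, 13.96 and 14.16 in wild type motoneurons. The fold was 1.02 with an interval of 0.891 to 1.17. By 1449796_at Prph read 9.01, 9.58 and 8.88 in knockout motoneurons, against 9.23, 9.13 and 9.22 in wild type motoneurons. Knockout replicate 2, the array with low Xist, was the highest of the 6 for each of the 4 Prph probe sets, and without it the log2 difference by 1449796_at was -0.25, against -0.035 with it. The folds of the other 3 Prph probe sets lay between 0.945 and 1.08, and the groups overlapped for each.

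Vim and Nes were far lower in these cells. Vim read 9.31, 9.34 and 9.05 in knockout motoneurons by 1438118_x_at, against 9.83, 9.30 and 10.07 in wild type motoneurons. Wild type replicate 2 lay among the knockout arrays and the other wild type arrays lay above all of them. This was the smallest unadjusted p of the 17, 0.05187, for a log2 difference of -0.51 with an interval of -1.02 to 0.0053 (adjusted p = 0.2984 by limma). By the other 2 Vim probe sets the folds were 0.761 and 0.825, each with an interval that held 1. Markers of some other cells differed in the same direction: the mean of 7 endothelial and mural markers ran from 6.54 to 6.81 in knockout motoneurons, against 6.97 to 7.15 in wild type motoneurons, and that of 7 astrocyte markers from 10.62 to 10.91 in knockout motoneurons, against 10.98 to 11.27 in wild type motoneurons. All 7 endothelial and mural markers and 5 of the 7 astrocyte markers had lower means in knockout motoneurons, and no marker of either list passed. The mean of 7 fibroblast markers, a cell type that makes Vim, ran from 6.07 to 6.31 in knockout motoneurons, against 6.26 to 6.56 in wild type motoneurons, with 5 of the 7 lower. The median differences of the macrophage and microglia, myelinating Schwann cell and skeletal muscle lists were -0.00070, 0.068 and 0.078. Those of the motoneuron, oligodendrocyte, immature or non-myelinating Schwann cell and spinal interneuron lists were -0.24, -0.13, -0.12 and -0.086. Of the motoneuron markers 7 of 9 were lower in knockout motoneurons, and of the oligodendrocyte markers all 6. The lowest endothelial and mural marker, Cdh5, averaged 4.35 in knockout and 4.75 in wild type motoneurons, and the part of these cells in the Vim values was not tested.

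Nes read 6.57, 6.18 and 6.60 in knockout motoneurons by 1449022_at, against 6.27, 6.26 and 5.89 in wild type motoneurons. The groups overlapped through knockout replicate 2, and the folds of its 3 probe sets lay between 1.16 and 1.24. No Nes difference passed, and within motoneuron arrays its percentile ranks ran from 25.6 to 50.1 over the 3 probe sets. Endothelium is among the cells that make Nes, and the part of such cells in these values was not tested. Over the 17 probe sets the 95% intervals, which are not adjusted for the number of probe sets, lay within a log2 difference of 1 either way for 15 and within 0.5 for 6.

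In sciatic nerve, which holds axons and their ensheathing cells but no motoneuron cell bodies, no filament probe set passed either. The background of passing probe sets was 0%, all 17 adjusted p-values were 1 by limma, and none had an unadjusted p under 0.05, against 2.31% of all probe sets. Groups did not overlap for 1 of the 17, against 7.26% of all probe sets. The median difference was 0.059 over the 17 and 0.010 over all probe sets.

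The neurofilament messages had wide spreads in nerve. Nefl read 10.50, 10.71 and 10.41 in knockout nerve by 1426255_at, against 10.25, 9.90 and 10.52 in wild type nerve. The fold was 1.25 with an interval of 0.921 to 1.69, while 1454672_at gave 0.998 with an interval of 0.624 to 1.60. Nefm read 8.27, 8.48 and 8.52 in knockout nerve, against 8.09, 7.83 and 8.56 in wild type nerve, a fold of 1.20 with an interval of 0.846 to 1.70. Nefh read 9.22, 9.79 and 9.97 in knockout nerve, against 9.86, 8.59 and 9.90 in wild type nerve, a fold of 1.16 with an interval of 0.620 to 2.15. Wild type replicate 2 was the lowest of the 6 nerve arrays for both Nefl probe sets, Nefm and Nefh, and for 6 of the 17 in all. Without that array the log2 difference of Nefh was -0.22, against 0.21 with it, and that of Nefl by 1454672_at was -0.31. The same array had the lowest mean of 7 skeletal muscle markers, 8.19, against 10.04 to 11.26 in knockout nerve and 13.01 and 14.03 in the other wild type nerves, and was the only wild type nerve with high Xist. Its 3'/5' differences, a sign of RNA quality, were also the highest in nerve, 1.17 for beta-actin, against 0.721 to 0.859 in knockout nerve and 0.687 and 0.786 in the other wild type nerves, and 1.03 for Gapdh, against 0.732 to 0.881 in knockout nerve and 0.806 and 0.882 in the other wild type nerves. With the beta-actin measure as a covariate the Nefh difference was -0.022, and with the muscle level it was 0.42.

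Ina was low in nerve and read 7.16, 6.32 and 5.41 in knockout nerve by 1418178_at, against 5.68, 6.19 and 6.05 in wild type nerve. Probe set 1448991_a_at read 5.25, 3.82 and 3.29 in knockout nerve, against 3.70, 4.30 and 4.31 in wild type nerve. Knockout nerves spanned the wild type range on both sides, with replicate 1 the highest of the 6 by both probe sets. That array also had the highest mean of the 5 spinal interneuron markers in nerve, 5.76, against 4.37 and 4.50 in the other knockout nerves and 4.25 to 4.43 in wild type nerves, and the part of such neurons in its Ina values was not tested. Prph read 9.68, 9.89 and 10.21 in knockout nerve by 1422530_at, against 9.65, 9.72 and 9.94 in wild type nerve. The probe set whose groups did not overlap was Prph 1420256_x_at, with 6.32, 6.61 and 6.51 in knockout nerve, against 6.73, 6.63 and 6.76 in wild type nerve. Every knockout array was the lower by it, for a fold of 0.856 with an interval of 0.673 to 1.09, and the other 3 Prph probe sets had folds of 1.04 to 1.11.

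Vim had the narrowest intervals of the 7 genes in nerve. By 1438118_x_at it read 15.14, 15.09 and 15.14 in knockout nerve, against 15.13, 15.14 and 15.17 in wild type nerve, with a fold of 0.983 and an interval of 0.928 to 1.04. The 3 Vim probe sets had folds of 0.979 to 1.01, although their level stood near the highest of these arrays, 15.52 to 15.55. Nes read 10.65, 10.47 and 10.71 in knockout nerve by 1453997_a_at, against 10.35, 9.73 and 10.54 in wild type nerve. Wild type replicate 2 was again the lowest and the groups overlapped, for a fold of 1.32 with an interval of 0.927 to 1.89, the largest fold among the 17 in nerve. The other 2 Nes probe sets had folds of 1.12 and 1.13.

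**Figure D2:**
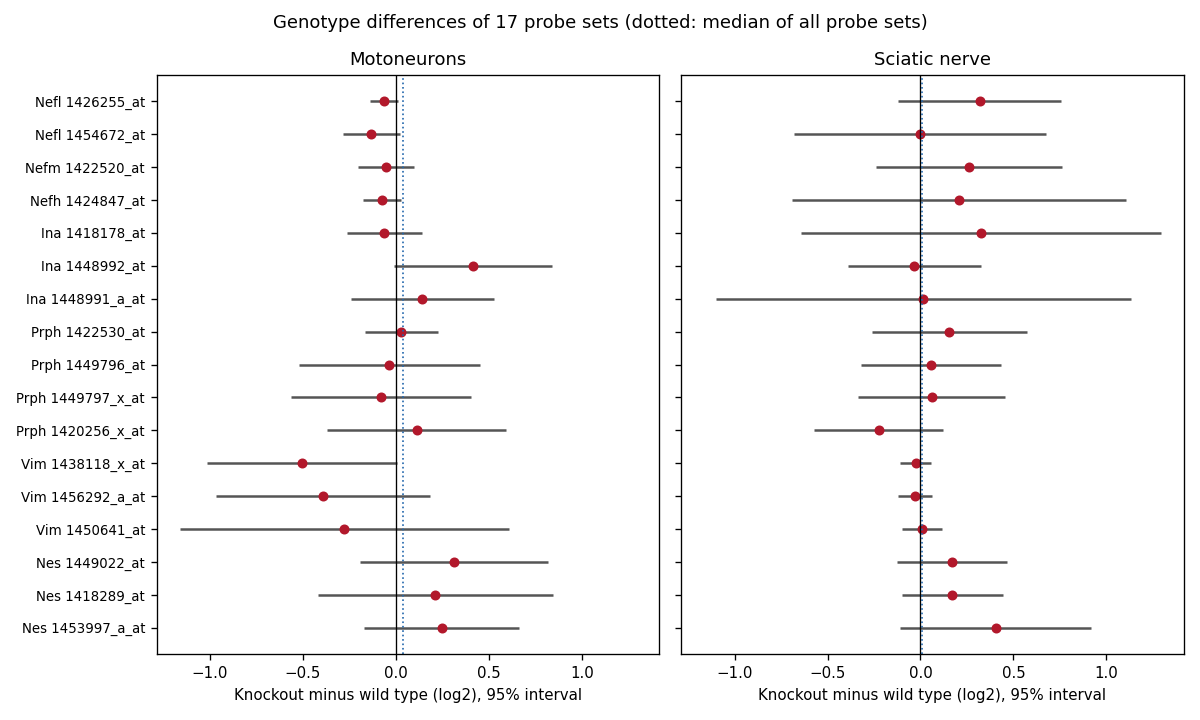
Log2 difference, knockout minus wild type, of each probe set in motoneurons (left) and in nerve (right), with its 95% interval from limma (3 arrays per group) and the median of all probe sets as a dotted line. Every interval holds 0, and the intervals of Nefl, Nefm and Nefh are narrower in motoneurons than in nerve while those of Vim are wider.

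Whether the knockout effect differed between tissues was tested as an interaction over the 12 arrays. None of the 17 probe sets passed, with a background of 0%, and 1 had an unadjusted p under 0.05, against 7.54% of all probe sets. That was Vim 1438118_x_at, for which the effect in motoneurons minus that in nerve was -0.48 (unadjusted p = 0.04664, adjusted p = 0.6601 by limma). Vim 1456292_a_at gave -0.36 and 1450641_at -0.29 (unadjusted p = 0.1634 and 0.4875 by limma). The median interaction was -0.14 over the 17 and 0.022 over all probe sets.

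**Figure D3:**
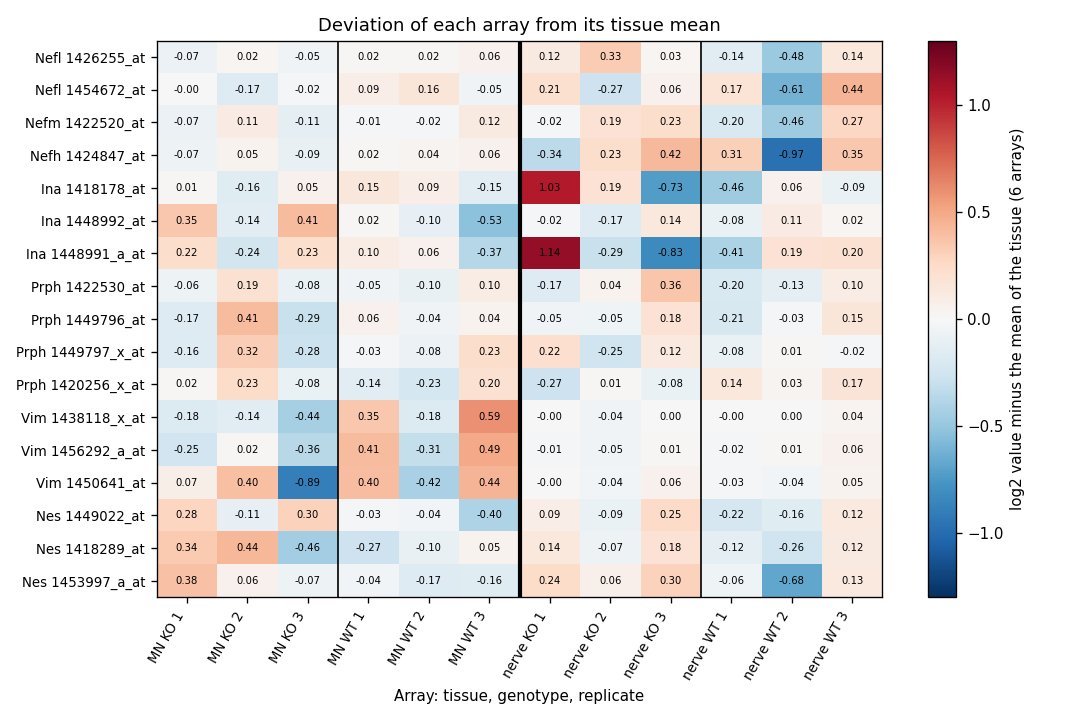
Deviation of each probe set from its mean over the 6 arrays of its tissue, by array, on the log2 scale (red above, blue below, value in each cell), with knockout before wild type in motoneurons and in nerve. Wild type nerve replicate 2 lies at -0.48 for Nefl by 1426255_at, -0.46 for Nefm and -0.97 for Nefh, and knockout nerve replicate 1 at 1.03 and 1.14 for 2 Ina probe sets.

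The filament genes separated the tissues. The tissues appear to have been normalized separately, with array medians of 6.53 to 6.59 in motoneurons and 8.29 to 8.40 in nerve, so levels across tissues rest on scales that may differ. The kit for RNA isolation and the capture also differed with the tissue, and their part cannot be told apart from it. The 3'/5' difference of beta-actin ran from 1.50 to 1.97 in motoneurons, against 0.687 to 1.17 in nerve, while that of Gapdh overlapped. Xist was high in most motoneuron arrays and low in most nerve arrays. The part of RNA quality and sex in the tissue differences was not tested. The median difference of all probe sets, motoneurons minus nerve, was -1.04 in knockout and -1.09 in wild type, and the values below are to be read beside it. The offset between tissues was smaller high on the scale. Upper quartiles were 9.85 to 9.88 in motoneurons and 10.79 to 10.82 in nerve, and maxima 15.16 to 15.22 and 15.52 to 15.55. The median and the shares of all probe sets are thus only a rough baseline for bright probe sets. In knockout 16 of the 17 passed by limma, against 82.7% of all probe sets. Of these, 10 were higher in motoneurons, against 15.2% of all probe sets, and 6 were lower, against 67.5%. In wild type 17 passed, against 82.1%, with 10 higher, against 14.3%, and 7 lower, against 67.9%.

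Nefl averaged 15.04 ± 0.049 in knockout motoneurons and 10.54 ± 0.16 in knockout nerve (SD, n = 3 each) by 1426255_at, a difference of 4.50 (SE 0.087, adjusted p = 2.899e-09 by limma). In wild type it averaged 15.10 ± 0.025 in motoneurons and 10.22 ± 0.31 in nerve (SD, n = 3 each), a difference of 4.88 (SE 0.15, adjusted p = 1.181e-07 by limma). Within an array this probe set had a percentile rank of 99.99 in all 6 motoneuron arrays, against 66.1 to 74.0 in the nerve arrays, and such ranks do not depend on the scale of the array. Nefm was higher in motoneurons by 5.98 in knockout and 6.29 in wild type. Nefh was higher by 4.90 in knockout and 5.18 in wild type.

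Ina was higher in motoneurons by each of its 3 probe sets. Its nerve values lay low on the scale, at percentile ranks of 3.33 to 16.4 by 1448991_a_at, and were not checked against background. By 1448991_a_at the difference was 8.61 in knockout and 8.49 in wild type. By 1418178_at it was 7.77 in knockout and 8.16 in wild type, and by 1448992_at 6.54 in knockout and 6.09 in wild type. Prph was higher by 4.15 in knockout and 4.28 in wild type with 1422530_at, and by 3.05 to 3.19 with 1449796_at and 1449797_x_at. The fourth Prph probe set, 1420256_x_at, disagreed with them. It differed by -0.28 in knockout, which did not pass (adjusted p = 0.2046 by limma), and by -0.62 in wild type, which did (adjusted p = 0.01227). It was the only one of the 17 whose sign turned with the scaling, to 1.50 in knockout and 1.14 in wild type once arrays were centred on their medians. The suffix _x_at marks probe sets whose probes may also match other transcripts.

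Vim and Nes were the lower genes in motoneurons. Vim differed by -5.89, -6.48 and -7.22 in knockout by its 3 probe sets, and by -5.41, -6.12 and -6.94 in wild type. Nes differed by -6.23, -7.44 and -5.97 in knockout and by -6.37, -7.48 and -5.81 in wild type. In each genotype, every motoneuron array lay below every nerve array for these 6 probe sets, as for 68.7% of all probe sets in knockout and 69.2% in wild type.

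**Figure D4:**
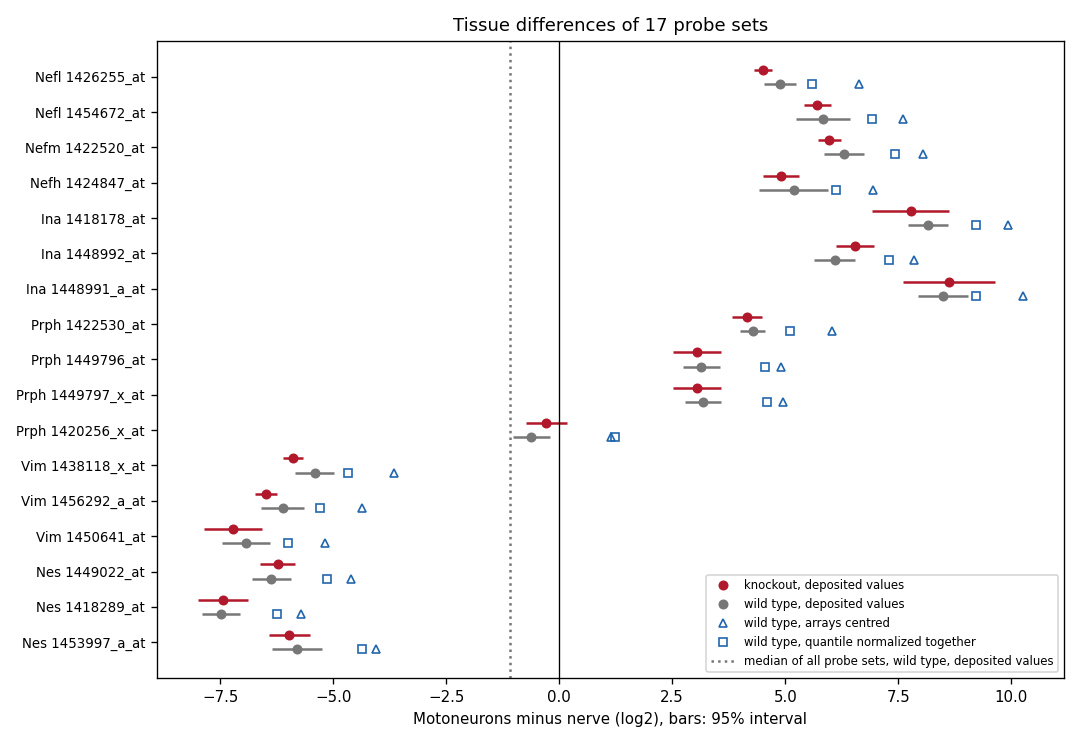
Log2 difference, motoneurons minus nerve, of each probe set in knockout (red) and in wild type (grey) with its 95% interval from limma, and in wild type after centring (triangles) and joint quantile normalization (squares). The dotted line marks the wild type median of all probe sets, -1.09, and Prph 1420256_x_at is the only probe set that crosses 0 with the scaling.

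The scaling alters the background but not the direction of the other 16 probe sets. Centring each array on its median raised the median difference of all probe sets to 0.74 in knockout and 0.67 in wild type. Joint quantile normalization brought it to 0.16 in knockout and 0.15 in wild type. The higher calls made up 18.4% of all calls in knockout as deposited, 69.5% after centring and 54.7% after quantile normalization. In wild type these shares were 17.4%, 69% and 54.6%.

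Related genes were taken from 3 lists: 14 other intermediate filament genes, 7 linkers that tie filaments to junctions or other cytoskeleton, and 29 neurofilament partners (kinases, motors and chaperones), of which 22 were measured. No gene of these lists passed in motoneurons, in nerve or in the interaction. For the knockout in motoneurons the median difference was 0.045 over other filaments, 0.091 over linkers and 0.0089 over partners, and in nerve it was 0.011, 0.00035 and 0.018. The smallest unadjusted p among the partners in motoneurons was that of Cdk5, a kinase that phosphorylates neurofilament tails, with a difference of 0.28 (unadjusted p = 0.001565, adjusted p = 0.1176 by limma). Trim2, a ubiquitin ligase that targets Nefl, differed by -0.23 (adjusted p = 0.1198). Among the other filaments, Lmna, which encodes the A-type lamins of the nucleus, differed by 0.64 in motoneurons, and the muscle filament Des by -0.80 in nerve, and neither passed. The 7 skeletal muscle markers had a median difference of -0.82 in nerve, with 6 lower in knockout, and their part in the Des value was not tested. Macf1, a linker of actin and microtubules, differed by -0.19 in motoneurons, and the desmosome protein Dsp by -2.37 in nerve (adjusted p = 1 by limma).

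Between tissues, the partners were mostly higher in motoneurons than in nerve, with 17 of 22 higher and 5 lower in knockout, where 15.2% of all probe sets were higher and 67.5% lower. In wild type 16 were higher, 4 were lower and 2 did not pass, against 14.3% higher and 67.9% lower over all probe sets. In wild type the kinesin light chain Klc1, part of a motor of axonal transport, was higher by 4.67, the Cdk5 activator Cdk5r2 by 6.27 and the stress kinase Mapk10 by 5.61, while the kinase Rock1 differed by -3.41. After centring the partners split into 21 higher and 1 lower in wild type, where 54.9% of all probe sets were higher and 24.7% lower. After quantile normalization they split into 17 higher and 3 lower in wild type, against 39.6% higher and 32.9% lower over all probe sets. Of the 14 other filaments 2 were higher and 12 lower in knockout motoneurons, and 2 were higher and 11 lower in wild type motoneurons. Of the 7 linkers 1 was higher and 6 lower in knockout, and 0 were higher and 5 lower in wild type. These counts are of the deposited values, where most probe sets were lower, 67.5% in knockout and 67.9% in wild type. They do not set either list apart from that background. In wild type the 2 higher filaments were Gfap, the astrocyte filament, by 3.24, and Synm, a partner of Vim and desmin, by 1.48. Both are named here after their values were seen. Of the keratins, which are filaments of epithelia, Krt19 differed by -8.50, Krt7 by -3.84, Krt18 by -4.12, Krt8 by -0.81 and Krt10 by -0.54, the last of which did not pass. Krt8 and Krt10 thus lay above the median of all probe sets, and Lmna differed by -3.71. Among the linkers, the plakin family members Eppk1 and Ppl differed by -7.17 and -5.35. After centring, in wild type, the other filaments split into 4 higher and 6 lower and the linkers into 4 higher and 3 lower. Over all probe sets 54.9% were then higher and 24.7% lower, so these splits and their background depend on the scaling.

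**Figure D5:**
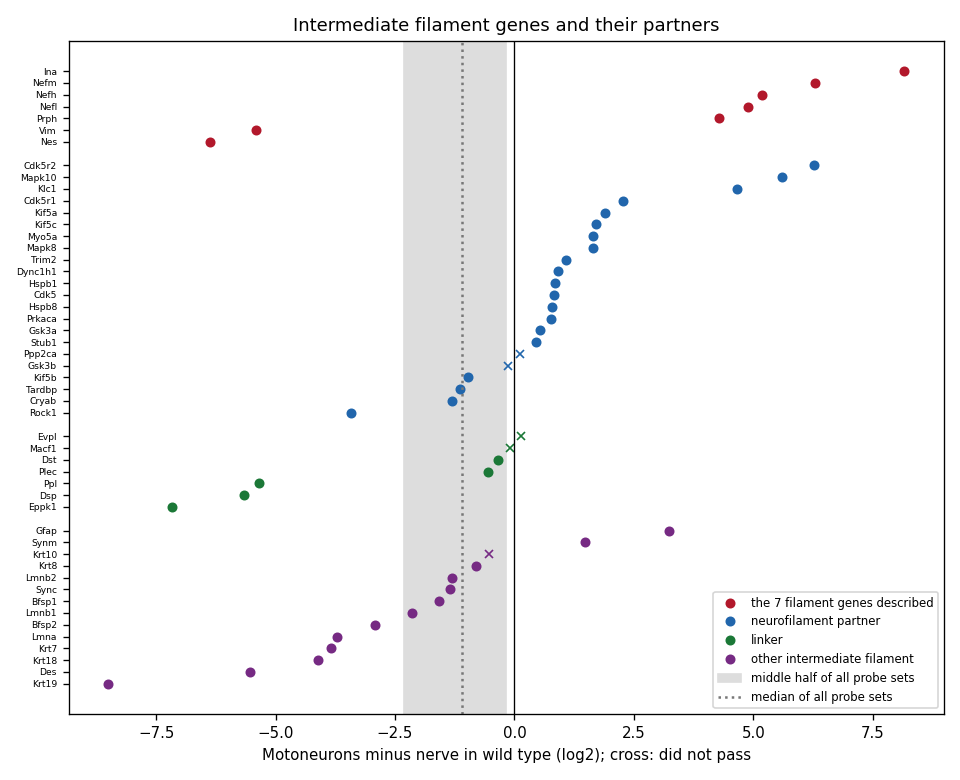
Log2 difference, motoneurons minus nerve in wild type, of the 7 filament genes and of the measured genes of the 3 lists, each by its brightest probe set, with crosses for those that did not pass an adjusted p of 0.05 by limma. The dotted line is the median of all probe sets, -1.09, and the grey band runs from their lower to their upper quartile. Most partners lie above 0 and most other filaments below it.

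The genes most like each filament gene were found by Pearson's r over 12 arrays, after the mean of each tissue was taken out, among named genes brighter on average than the median probe set. These r values describe arrays that share RNA handling within a tissue, and carry no test. They can rest mainly on the tissue with the wider spread. Deviations of Nefh from the tissue mean ran from -0.97 to 0.42 in nerve, against -0.092 to 0.056 in motoneurons. Those of Vim by 1438118_x_at ran from -0.44 to 0.59 in motoneurons, against -0.041 to 0.037 in nerve. For Nefl the nearest were Minar2 (r = 0.910) and Nefm (r = 0.865). For Nefm they were Mapk8ip2 (r = 0.919) and Cck (r = 0.899), and for Nefh Arf2 (r = 0.938) and Eloc (r = 0.928). For Ina they were Chgb (r = 0.930) and Pacsin1 (r = 0.925), and for Prph Pcyt1b (r = 0.927) and Golga7b (r = 0.914). For Vim they were Apod (r = 0.920) and Col1a1 (r = 0.904), and for Nes Pip4k2a (r = 0.961) and Ank3 (r = 0.934). Nefl and Nefm, the only such pair within the family, lie on chromosome 14 with 1 annotated gene between them and no protein-coding one.

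Windows of 250 bases before the start of Ina, Prph, Vim and Nes are shown because these genes differed between the tissues in opposite directions, Ina and Prph higher in motoneurons and Vim and Nes lower, and because the sequence table used holds a window for these 4 of the 7 genes. They come from RefSeq, assembly GRCm38.p6, 5′ to 3′ on the plus strand, ending at the base before the transcript start. Capitals mark a TATA box (TATAAA) or a GC box (GGGCGG), each searched on both strands, so that a GC box on the other strand reads CCGCCC.
Ina, chr19:47014431-47014680: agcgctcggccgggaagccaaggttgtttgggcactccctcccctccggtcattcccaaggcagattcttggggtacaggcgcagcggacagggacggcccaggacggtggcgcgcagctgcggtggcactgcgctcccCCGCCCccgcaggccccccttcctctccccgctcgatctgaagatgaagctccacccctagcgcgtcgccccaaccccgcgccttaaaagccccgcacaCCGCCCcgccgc
Prph, chr15:99054924-99055173: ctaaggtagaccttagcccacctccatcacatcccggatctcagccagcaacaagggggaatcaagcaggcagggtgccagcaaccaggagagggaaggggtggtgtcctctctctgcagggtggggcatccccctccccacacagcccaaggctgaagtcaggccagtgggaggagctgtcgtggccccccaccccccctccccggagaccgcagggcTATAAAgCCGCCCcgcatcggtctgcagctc
Vim, chr2:13574061-13574310: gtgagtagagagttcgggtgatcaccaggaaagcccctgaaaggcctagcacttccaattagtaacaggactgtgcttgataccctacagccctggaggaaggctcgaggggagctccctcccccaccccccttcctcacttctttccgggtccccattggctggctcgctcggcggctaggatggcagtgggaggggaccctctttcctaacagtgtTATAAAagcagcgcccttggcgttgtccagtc
Nes, chr3:87970843-87971092: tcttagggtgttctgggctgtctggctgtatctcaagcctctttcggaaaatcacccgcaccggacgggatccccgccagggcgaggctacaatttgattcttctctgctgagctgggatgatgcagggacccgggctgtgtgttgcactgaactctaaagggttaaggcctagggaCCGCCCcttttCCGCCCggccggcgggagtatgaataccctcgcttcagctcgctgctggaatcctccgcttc

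The TATA box stands in the windows of Prph and Vim, which differ in opposite directions between the tissues, and in 12.4% of 32851 RefSeq windows of this length. It begins at position -31 in Prph and -32 in Vim, counted back from the transcript start. A GC box stands 2 times each in the windows of Ina and Nes, 1 time in that of Prph and in 32.7% of all windows, and its letters are not in the Vim window. The AP-1 letters TGANTCA, searched on both strands, occur in 6.75% of all windows and in none of the 4. These matches describe letters only and say nothing of binding.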

How the data were processed

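The 12 arrays came with log2 expression values per probe set, which the authors deposited and which were made with Affymetrix Expression Console 1.1, per the submitters' processing notes. RNA was amplified from a small input before labelling, per the labels' protocols, and the summarization method is not given in the sources used here. That the scale is log2 was judged from their range. Arrays have no read depth, so their number limits the precision. From these values, 64 of 45101 probe sets (controls) were dropped, and 34945 of the rest had 1 symbol, 932 several and 9160 none. Symbols followed the platform annotation, updated through RefSeq for 34741 probe sets. Differences were tested with limma 3.58.1 in R 4.3.3 (moderated, with a mean trend, two-sided), and p-values were adjusted by Benjamini-Hochberg over all 45037 probe sets, with calls at 0.05. For lists, a gene was read by its brightest probe set. The fit was tested on simulated data.

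The members and lists were chosen with earlier results of these data known. The named genes are all members, up to 4 genes per list and comparison by smallest unadjusted p, and the 2 most similar genes per member. Named outside this rule were Gfap, Synm, Krt8 and Krt10 between tissues in wild type, and marker or quality genes such as Chat, Cdh5 and Xist. Alternatives changed the scaling, filter, weights, covariates and arrays. Partner genes of the list without a value were not analysed here. Figures used matplotlib 3.10.9 in Python 3.11.15.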

Additional observations from a re-analysis of the deposited data

How the results depend on the processing

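No filament probe set passed in either genotype comparison or in the interaction under any alternative run. Between tissues 16 of 17 in knockout and 17 of 17 in wild type passed with a replicate block, as without it. Without the block 82.7% of all probe sets passed in knockout and 82.1% in wild type. The deviations of arrays with the same replicate number correlated at -0.079 to 0.090 in motoneurons and, all above 0, at 0.026, 0.305 and 0.216 in nerve. As 1 nerve pair and all motoneuron pairs were under 0.1 and the labels state no pairing, the numbers were not used as pairs. With the replicate block 0 of all probe sets passed in each genotype comparison. Of the values recomputed, 1340 were labelled the same, 57 turned sign and 10 moved. A difference was the same where it kept its direction and side of the threshold. A count of passing probe sets was the same where it changed little or not at all, and all 10 that moved were such counts. Where a value turned or moved, the cause was not tested. Over all probe sets, 61 passed for the knockout in motoneurons among brighter probe sets, 2929 with array weights and 828 with 12 arrays in 1 fit, against 0 as reported, and 0 to 4646 when 1 array was left out, the highest without wild type replicate 3. In nerve 1 passed with 12 arrays in 1 fit, and in the interaction 0 to 238 when 1 array was left out, the highest also without wild type motoneuron replicate 3. Between tissues 19115 in knockout and 18336 in wild type passed among brighter probe sets, which are fewer, against 37262 in knockout and 36992 in wild type. All sign changes in the genotype comparisons were of differences that did not pass. In motoneurons, with Xist as a covariate, Ina 1418178_at was 0.030, Prph 1422530_at -0.092, Prph 1420256_x_at -0.0061 and Nes 1418289_at -0.0044, and with the 3'/5' ratio of beta-actin Prph 1449796_at was 0.084. In nerve, median centring gave Ina 1448991_a_at -0.025 and Vim 1450641_at -0.031, array weights gave Ina 1448992_at 0.0039, Xist gave Nefl 1454672_at 0.026, beta-actin gave Nefh -0.022 and Ina 1448992_at 0.0022, and the muscle level gave Nefl 1454672_at 0.17 and Ina 1448991_a_at -0.019. In the interaction, array weights gave Ina 1448991_a_at -0.022. Between tissues Prph 1420256_x_at was 1.50 in knockout and 1.14 in wild type after centring, and 1.55 in knockout and 1.24 in wild type after quantile normalization. When 1 array was left out in motoneurons, Ina 1418178_at ran from -0.15 to 0.0032, Ina 1448991_a_at from -0.0080 to 0.30, Prph 1422530_at from -0.060 to 0.086, Prph 1449796_at from -0.25 to 0.10, Prph 1449797_x_at from -0.26 to 0.039 and Vim 1450641_at from -0.56 to 0.096. In nerve Nefl 1454672_at ran from -0.31 to 0.22, Nefh from -0.22 to 0.43, Ina 1418178_at from -0.11 to 0.77, Ina 1448992_at from -0.11 to 0.042, Ina 1448991_a_at from -0.55 to 0.43, Prph 1449796_at from -0.034 to 0.15, Prph 1449797_x_at from -0.035 to 0.20 and Vim 1450641_at from -0.015 to 0.038. In the interaction Nefl 1454672_at ran from -0.35 to 0.18, Nefh from -0.51 to 0.15, Ina 1418178_at from -0.83 to 0.046, Ina 1448991_a_at from -0.29 to 0.69, Prph 1422530_at from -0.25 to 0.017, Prph 1449796_at from -0.30 to 0.047, Vim 1450641_at from -0.57 to 0.086, Nes 1418289_at from -0.13 to 0.32 and Nes 1453997_a_at from -0.33 to 0.080. With 3 arrays per group the precision is limited, and differences of Nefl and Vim near the top of the scale are bounded by the array's range.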
